A study of Mus musculus with 6 samples.

Results

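The 56 mitosis and spindle genes described here encode the kinases, cyclins, checkpoint proteins, kinetochore parts, kinesin motors, condensin subunits and cytokinesis factors with which a cell divides its chromosomes, together with 2 transcription factors that drive such genes. They were chosen by name, as a list of known components of mitosis, with earlier results of these data known. All 56 were found among the 41128 features of the deposited tables. They lie on 16 chromosomes, 11 of them on chromosome 2 and none on chromosome 8, which carries Itgb1. RNA was sequenced from mouse lenses at embryonic stage E15.5 in 2 groups of 3 libraries. The conditional knockout (cKO) lenses were homozygous for a floxed Itgb1 allele, the gene of β1-integrin, and carried MLR10 Cre, a transgene that recombines in lens epithelial and fiber cells. They came from a mixed strain background, and each replicate was a pool of 30 lenses. The wild-type (WT) lenses were C57Bl/6 in strain and genotype, each replicate was a pool of 75 lenses, and their records repeat samples of an earlier series. Strain, Cre, pool size and source therefore differed together with Itgb1, and their parts in any difference cannot be told apart.

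Entry into mitosis is driven by the kinase CDK1 bound to cyclin B, aided by Aurora and Polo-like kinases. Microtubules then capture the kinetochores, the spindle checkpoint holds back the anaphase-promoting complex until every chromosome is attached, and separase finally cuts the cohesin that joins sister chromatids. Transcription of most of these genes peaks late in the cell cycle, and in the embryonic lens the dividing cells lie in the epithelium on the anterior surface, whereas elongating fiber cells have left the cycle.

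Levels are given as CPM, reads scaled to the same total in each library, and, where genes are compared with each other, as RPKM, which also divides by gene length. Between 20036554 and 28095318 reads were counted per cKO library and between 10023049 and 11531139 per WT library, and the fewest reads behind any value of a member was 40. Replicates of a group differed by more than counting noise, with a chi-square of 4.03 to 17.5 per degree of freedom, so none was counted as a repeat of another. Fold changes are log2 of cKO over WT on the log2(CPM + 1) scale, which understates changes of low genes, and a gene was called at an adjusted p under 0.05 from limma over the 11941 genes tested. The p-values measure the spread between pooled replicates. Itgb1 itself read 236, 275 and 262 CPM in cKO lenses, against 402, 424 and 448 CPM in WT lenses, a log2 fold change of -0.72 (SE 0.0769, adjusted p = 1.63e-05). The lens fiber markers summed to 123525 to 151493 CPM in cKO and 134032 to 145413 CPM in WT, with Sox1 listed at 0, so the libraries were lens RNA by these markers. Single fiber markers did differ. Of 17 tested, 5 were called lower and 2 higher (29.4% and 11.8%), beside 15.9% and 20.9% of all tested genes.

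Of the 56 members, 35 fell in cKO lenses (62.5%) and none rose, where 15.9% of all tested genes were called lower and 20.9% higher. The count of members higher was also 0 at an unadjusted p under 0.05, and edgeR on the recovered reads called 37 lower and 0 higher, beside 20.0% of all tested genes lower and 20.0% higher. All 56 passed the filter on low values. Their median log2 fold change was -0.41, against 0.03 over all tested genes, and the single values ran between -1.06 and 0.17, with 50 below 0 and 6 above. The 35 that fell stood at a median of 69.3% of their WT mean. For 34 members every cKO library lay below every WT library, for 0 every one lay above, and for 22 the groups overlapped, while over all tested genes 21.2% had all cKO libraries below and 26.9% all above. In bulk lens RNA, fewer dividing cells and less mRNA per dividing cell cannot be told apart. Leaving out cKO replicate 3 lowered the count of members that fell to 22, and the share of all genes called lower to 11.2%.

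**Figure D1:**
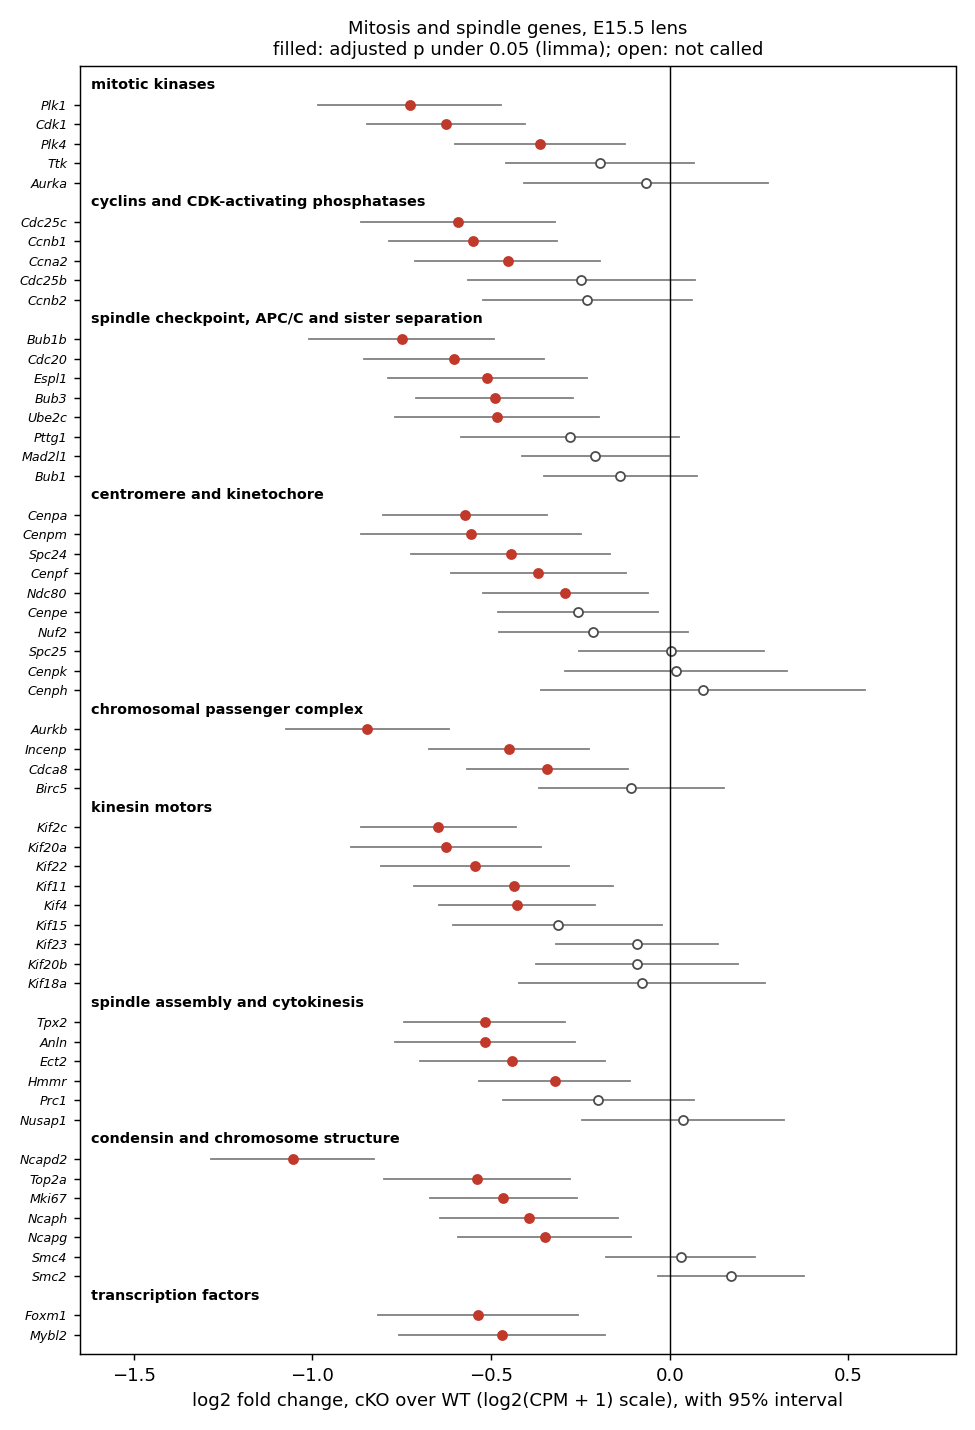
Log2 fold change of each of the 56 members (cKO over WT, log2(CPM + 1) scale) with 95% confidence intervals from limma, grouped by role, with filled points for called members. All 35 called members lie left of 0, between -1.06 and -0.29, and the 21 that were not called lie between -0.31 and 0.17.

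Promoter sequence was available for 47 of the 56 members from RefSeq (GRCm38.p6, 250 bases before to 50 after the annotated start, the first promoter listed for each gene). Many promoters of late cell cycle genes are known, from human and mouse cells, to carry a cell cycle genes homology region (CHR), which is bound by the DREAM and MuvB complexes, next to CCAAT boxes bound by the factor NF-Y. The 7 promoters below show where those letters stand in 5 members that fell and in 2 that were not called. Of the members with both CHR and CCAAT letters in the stretch shown, the first 5 had the smallest adjusted p and Kif23 and Spc25 the largest. Each runs 5′ to 3′ on the gene's strand over 180 bases, up to 30 bases after the start, and capitals mark the CHR letters TTTGAA or TTCGAA and the box CCAAT, on either strand (ATTGG is CCAAT on the other strand).
Ncapd2: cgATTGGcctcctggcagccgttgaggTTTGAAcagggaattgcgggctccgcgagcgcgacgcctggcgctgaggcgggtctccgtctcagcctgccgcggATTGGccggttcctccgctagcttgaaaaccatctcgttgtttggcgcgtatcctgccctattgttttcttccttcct
Cdk1: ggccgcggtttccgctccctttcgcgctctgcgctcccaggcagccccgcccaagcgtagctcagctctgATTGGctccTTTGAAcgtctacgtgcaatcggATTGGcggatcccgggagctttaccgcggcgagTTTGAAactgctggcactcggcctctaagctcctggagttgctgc
Cenpa: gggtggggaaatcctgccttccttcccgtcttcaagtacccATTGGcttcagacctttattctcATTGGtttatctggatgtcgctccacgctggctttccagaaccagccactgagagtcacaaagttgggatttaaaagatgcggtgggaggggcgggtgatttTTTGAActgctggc
Cdc20: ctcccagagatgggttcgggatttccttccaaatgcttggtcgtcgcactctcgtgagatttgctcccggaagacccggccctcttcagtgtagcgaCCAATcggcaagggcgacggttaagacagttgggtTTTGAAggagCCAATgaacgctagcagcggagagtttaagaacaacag
Mki67: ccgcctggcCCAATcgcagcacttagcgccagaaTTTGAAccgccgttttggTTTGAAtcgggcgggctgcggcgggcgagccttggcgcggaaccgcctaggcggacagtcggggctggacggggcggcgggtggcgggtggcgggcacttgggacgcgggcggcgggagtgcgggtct
Kif23: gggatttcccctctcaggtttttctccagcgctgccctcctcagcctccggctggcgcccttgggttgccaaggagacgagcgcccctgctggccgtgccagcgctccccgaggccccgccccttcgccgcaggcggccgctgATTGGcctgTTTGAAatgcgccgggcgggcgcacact
Spc25: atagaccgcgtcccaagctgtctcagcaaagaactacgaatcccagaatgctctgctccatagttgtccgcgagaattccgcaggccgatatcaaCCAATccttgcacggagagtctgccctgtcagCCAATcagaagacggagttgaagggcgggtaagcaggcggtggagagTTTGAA
Counted from the RefSeq start, the CHR letters of Ncapd2 began 123 bases before it, those of Cdc20 18 bases before, and those of Cenpa 17 bases after. For Ncapd2 and Cenpa this start differs from the end of the gene coordinates given below, which come from GENCODE. Cdk1 held them at 71 and 15 bases before its start and Mki67 at 116 and 98 bases before. Kif23 and Spc25, which were not called, held the same letters at 3 and 25 bases after the start. The windows lie at chr6:125191557-125191736 (minus strand) for Ncapd2, chr10:69352883-69353062 (minus) for Cdk1, chr5:30666736-30666915 (plus) for Cenpa, chr4:118437314-118437493 (minus) for Cdc20, chr7:135716350-135716529 (minus) for Mki67, chr9:61946770-61946949 (minus) for Kif23 and chr2:69206184-69206363 (minus) for Spc25.

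CHR letters (TTTGAA or TTCGAA, both strands) stood in 34 of the 47 promoters (72.3%), beside 13.2% of the 9026 promoters of tested genes and 19.4% of all 27025 promoters of the same length. CCAAT stood in 33 (70.2%), beside 39.1% of tested genes and 37.9% of all promoters. Both were found in 29 (61.7%), beside 5.75% and 7.70%. The E2F site was searched on both strands under its common spelling TTTCCCG, under the spelling TTTGGCG, and under the related spellings TTTCGCG and likewise also TTTGCCG. Any of these was in 10 promoters (21.3%), beside 11.5% and 6.85%. The members' 47 CHR matches clustered around the start, with 32 (68.1%) within 50 bases of it, against 323 of 1318 matches (24.5%) over all tested genes. These matches are letters in a window and not measured sites.

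**Figure D2:**
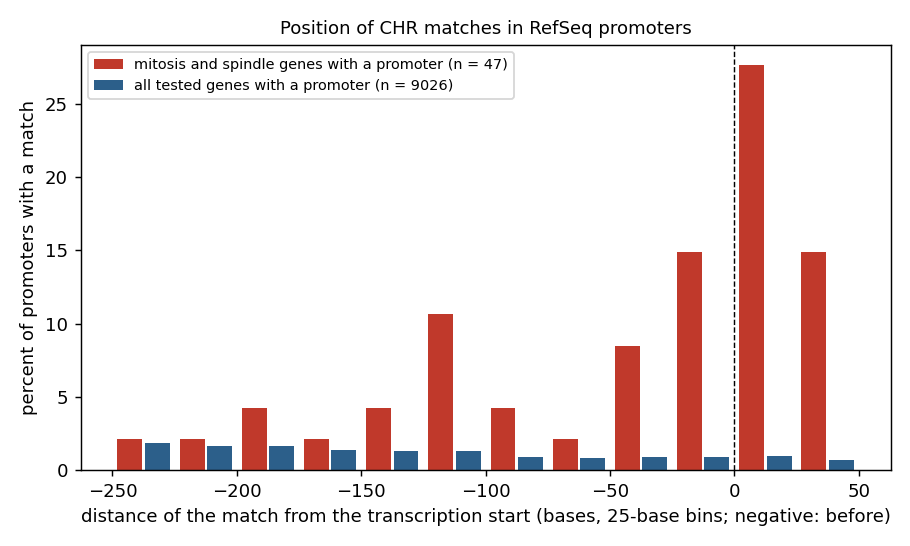
Position of the CHR letters relative to the annotated start (bases) in promoters of the members and of all tested genes, as the percent of promoters in each set with a match in each bin. Of the members' 47 matches, 32 lie within 50 bases of the start, against 323 of 1318 for all tested genes.

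Among members with CHR letters, 23 of 34 fell, with a median log2 fold change of -0.43, and among members without them 4 of 13 fell, with a median of -0.21. The difference between those shares was not tested. Of the 1157 tested genes with CHR letters that are not members, 196 (16.9%) were called lower, beside 15.9% of all tested genes, and their median was 0.02. Of the 490 such genes with both CHR and CCAAT, 95 (19.4%) were called lower, with a median of 0.02.

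The mitotic kinases split. Of 5, 3 fell (Plk1, Cdk1 and Plk4) and 2 were not called (Aurka and Ttk). Plk1 (ENSMUSG00000030867, GRCm38 chromosome 7, 122159439 to 122169873, plus strand), a kinase of centrosome maturation and spindle assembly, read 20.2, 22.8 and 15.6 CPM in cKO lenses, against 34.1, 30.5 and 33.5 CPM in WT lenses. All 3 cKO libraries lay below the WT libraries, and the log2 fold change was -0.73 (SE 0.119, adjusted p = 0.000498). Cdk1 (ENSMUSG00000019942, GRCm38 chromosome 10, 69335146 to 69352938, minus strand), the catalytic partner of cyclin B, read 26.4, 29.7 and 22.1 CPM in cKO lenses, against 43.0, 40.0 and 38.7 CPM in WT lenses. Again the groups did not overlap (log2 fold change -0.63, SE 0.103, adjusted p = 0.000513). Plk4, the kinase that starts centriole duplication, was called at a smaller difference (log2 fold change -0.36, SE 0.111, adjusted p = 0.0207), and its call was lost when WT replicate 1, cKO replicate 1 or cKO replicate 3 was left out. Aurka, the Aurora kinase of spindle poles and the member of this group with the largest adjusted p, read 17.6, 26.1 and 15.3 CPM in cKO lenses, against 21.5, 19.5 and 19.4 CPM in WT lenses. Its WT libraries lay inside the cKO range, and the log2 fold change was -0.07 (95% confidence interval -0.41 to 0.28, adjusted p = 0.774). The checkpoint kinase Ttk was at log2 fold change -0.20, SE 0.122, adjusted p = 0.231. About 17.6% of the 32-base words of Plk1 also occur in transcripts of other genes, so its level is less certain. The same holds for 12 members at a share of at least 10%, among them Ube2c (21.6%) and Kif20a (21.2%). Without such genes 24 of 44 members were called lower, with a median of -0.35, beside 1506 of 9565 of all genes.

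**Figure D3:**
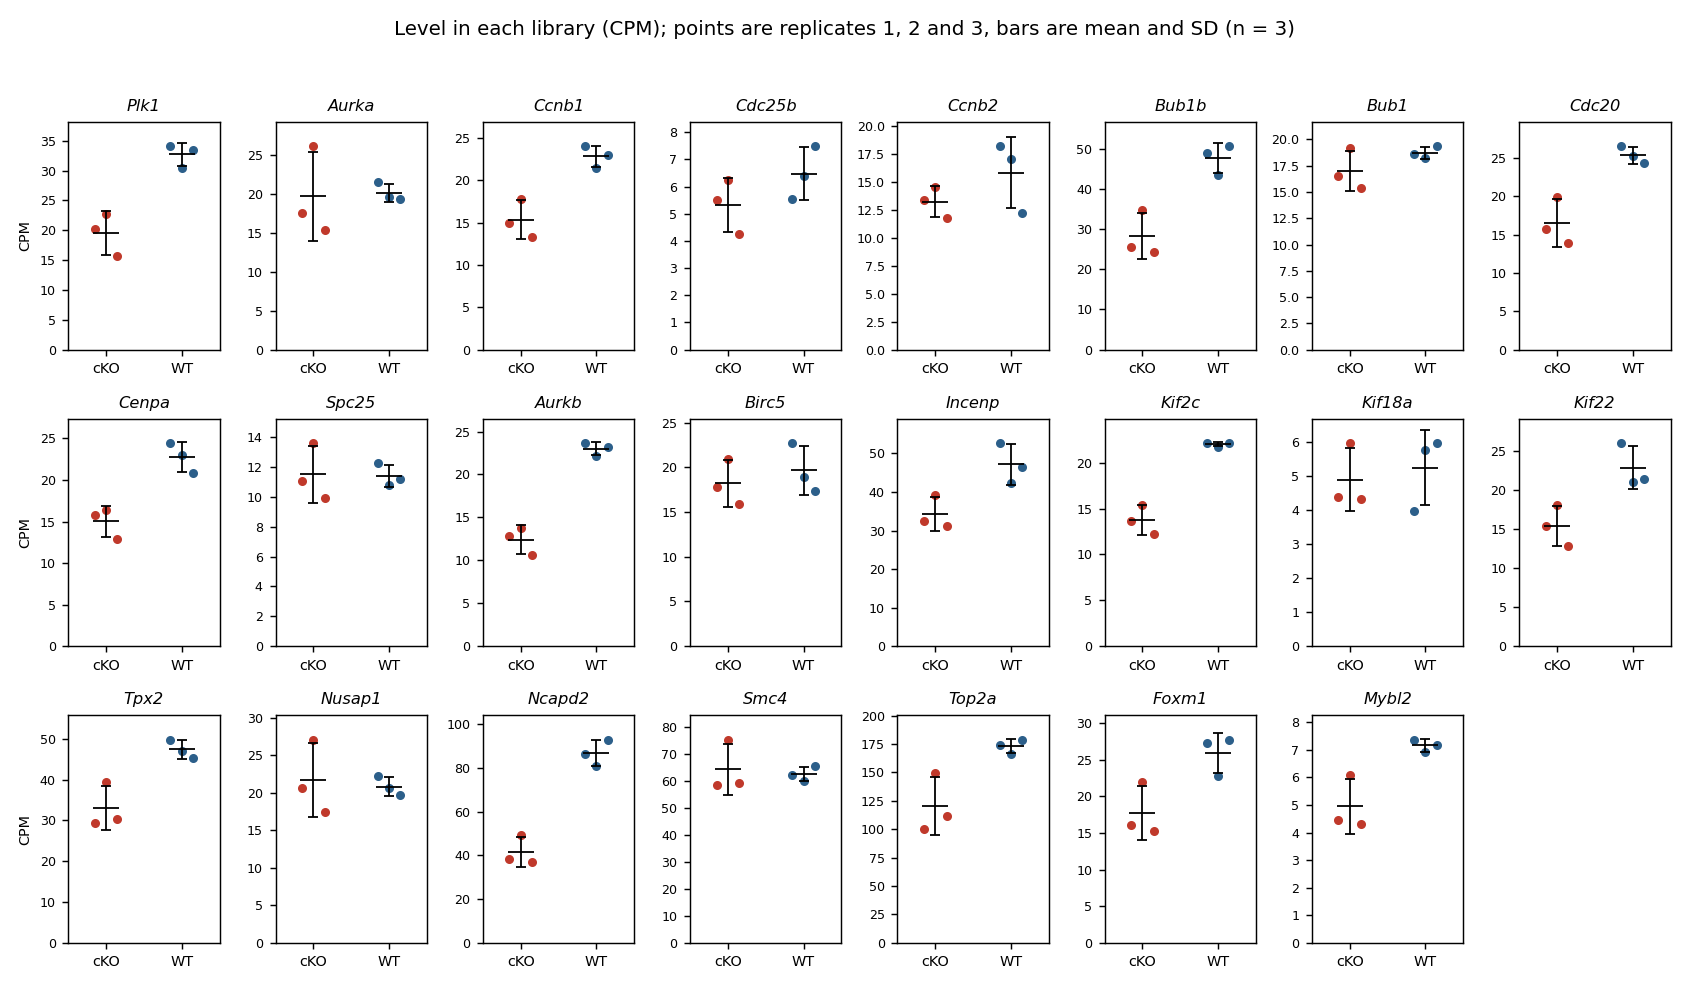
CPM of 23 members in each library, cKO on the left and WT on the right, with points for replicates 1, 2 and 3 and bars for mean and SD (n = 3). The groups stand apart for Plk1, Bub1b, Aurkb, Kif2c and Ncapd2 and overlap for Aurka, Bub1, Spc25, Birc5, Kif18a and Nusap1, and cKO replicate 2, the middle point, is the highest cKO library in most panels.

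Among the cyclins and the CDC25 phosphatases, which remove the inhibitory phosphates of CDK1, 3 of 5 fell. Ccnb1 (ENSMUSG00000041431, GRCm38 chromosome 13, 100778650 to 100786570, minus strand), which encodes the main mitotic cyclin, read 14.97, 17.8 and 13.2 CPM in cKO lenses, against 24.0, 21.5 and 22.9 CPM in WT lenses. All cKO values were below all WT values (log2 fold change -0.55, SE 0.109, adjusted p = 0.00175), although other genes hold 25.8% of its words. The related cyclin B gene Ccnb2, the member of this group with the highest RPKM, read 13.4, 14.5 and 11.8 CPM in cKO lenses, against 18.2, 17.1 and 12.3 CPM in WT lenses. WT replicate 3 lay among the cKO values and the gene was not called (log2 fold change -0.23, SE 0.136, adjusted p = 0.203). Ccna2, the cyclin of S phase and early mitosis, fell (log2 fold change -0.45, SE 0.120, adjusted p = 0.0103), as did Cdc25c (log2 fold change -0.59, SE 0.126, adjusted p = 0.00277). Cdc25b had low levels of 5.49, 6.23 and 4.24 CPM in cKO lenses, against 5.55, 6.40 and 7.48 CPM in WT lenses. Those ranges overlapped and it was not called (log2 fold change -0.25, SE 0.147, adjusted p = 0.208).

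In the group of the spindle checkpoint, the anaphase-promoting complex (APC/C) and sister separation, 5 of 8 fell, and its median of -0.49 was lower than that of every other role group of more than 2 genes. Bub1b (ENSMUSG00000040084, GRCm38 chromosome 2, 118598211 to 118641591, plus strand), which encodes the checkpoint inhibitor BUBR1, read 25.5, 34.8 and 24.3 CPM in cKO lenses, against 48.8, 43.4 and 50.6 CPM in WT lenses. The highest cKO library remained below the lowest WT library (log2 fold change -0.75, SE 0.120, adjusted p = 0.000484). Cdc20, the APC/C activator that the checkpoint holds, read 15.8, 19.9 and 13.8 CPM in cKO lenses, against 26.5, 25.2 and 24.3 CPM in WT lenses. It too was apart in every library (log2 fold change -0.60, SE 0.117, adjusted p = 0.00151), and other genes hold 22.2% of its words. The other called members were Bub3 (-0.49), the ubiquitin-conjugating enzyme gene Ube2c (-0.48) and the separase gene Espl1 (-0.51). Bub1, the checkpoint kinase, read 16.5, 19.1 and 15.3 CPM in cKO lenses, against 18.6, 18.2 and 19.4 CPM in WT lenses. A single cKO library was among the WT values, and Bub1 was not called (log2 fold change -0.14, SE 0.0997, adjusted p = 0.2996). Mad2l1, the gene of the checkpoint protein MAD2, had all cKO libraries below all WT libraries, at 18.1, 19.0 and 16.6 CPM in cKO lenses, against 20.7, 22.4 and 19.4 CPM in WT lenses, but was not called (log2 fold change -0.21, SE 0.0952, adjusted p = 0.104). The securin gene Pttg1 was not called either (log2 fold change -0.28, SE 0.142, adjusted p = 0.142).

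The centromere and kinetochore genes had the median nearest 0 of the role groups, -0.27, with 5 of 10 called lower. Cenpa (ENSMUSG00000029177, GRCm38 chromosome 5, 30666777 to 30674830, plus strand), the histone variant that marks centromeres, read 15.8, 16.3 and 12.9 CPM in cKO lenses, against 24.5, 23.0 and 20.9 CPM in WT lenses. The groups did not overlap (log2 fold change -0.57, SE 0.107, adjusted p = 0.00118). The 4 other called members were Cenpm (-0.56), Spc24 (-0.45), Cenpf (-0.37) and Ndc80 (-0.29). Ndc80 lost its call in 7 of the 18 alternatives that tested it. Spc24 and Ndc80 belong with Nuf2 and Spc25 to the NDC80 complex, which couples kinetochores to microtubules. Spc25, the member of this group with the largest adjusted p, had levels of 11.03, 13.6 and 9.89 CPM in cKO lenses, against 12.2, 10.8 and 11.2 CPM in WT lenses. The WT libraries lay inside the cKO range, and the log2 fold change was 0.0042 with a 95% confidence interval of -0.26 to 0.26 (adjusted p = 0.983). Nuf2 was not called either (log2 fold change -0.21, SE 0.123, adjusted p = 0.190), and no difference between the 4 subunits was tested. Cenpe, Cenph and Cenpk were not called, at -0.26, 0.09 and 0.02, and of these Cenpe was called in 9 of 19 alternatives.

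The chromosomal passenger complex joins the kinase AURKB to INCENP, survivin (Birc5) and borealin (Cdca8), and 3 of its 4 genes fell. Aurkb (ENSMUSG00000020897, GRCm38 chromosome 11, 69045647 to 69051664, plus strand) read 12.9, 13.8 and 10.6 CPM in cKO lenses, against 23.7, 22.2 and 23.1 CPM in WT lenses. This was 54.0% of the WT mean with no overlap (log2 fold change -0.85, SE 0.106, adjusted p = 6.25e-05). Incenp, the scaffold and the member with the highest RPKM here, read 32.5, 39.2 and 31.1 CPM in cKO lenses, against 52.7, 42.3 and 46.5 CPM in WT lenses. All cKO libraries were lower (log2 fold change -0.45, SE 0.104, adjusted p = 0.00459), and Cdca8 was called as well (log2 fold change -0.34, SE 0.105, adjusted p = 0.0207). Birc5 read 17.8, 21.0 and 15.8 CPM in cKO lenses, against 22.7, 18.9 and 17.4 CPM in WT lenses. The groups overlapped and it was not called (log2 fold change -0.11, SE 0.120, adjusted p = 0.516). Within each library the log2 ratio of Aurkb to Birc5 was -0.46, -0.60 and -0.58 in cKO, against 0.06, 0.23 and 0.42 in WT. The log2 ratio of Aurkb to Aurka, the other Aurora kinase, was -0.45, -0.92 and -0.53 in cKO, against 0.14, 0.18 and 0.26 in WT. Both ratios separated every cKO library from every WT library, and both pairs were chosen after their values were seen, so no test is given.

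Of the 9 kinesin motors, which move or trim microtubules, 5 fell, with a median of -0.43. Kif2c (ENSMUSG00000028678, GRCm38 chromosome 4, 117159639 to 117182639, minus strand), the microtubule depolymerase of centromeres, read 13.6, 15.4 and 12.2 CPM in cKO lenses, against 22.1, 21.7 and 22.1 CPM in WT lenses. The WT libraries were nearly equal and all cKO libraries were lower (log2 fold change -0.65, SE 0.1003, adjusted p = 0.000334). Kif22, a chromosome arm motor with the highest RPKM of the kinesins, read 15.3, 18.01 and 12.9 CPM in cKO lenses, against 26.0, 21.0 and 21.5 CPM in WT lenses. It was also lower in every cKO library (log2 fold change -0.54, SE 0.122, adjusted p = 0.00386). Kif20a, which acts in cytokinesis, fell by 0.63 on the log2 scale, the chromokinesin gene Kif4 by 0.43 and Kif11, the motor that separates spindle poles, by 0.44. For Kif11 the groups overlapped, as cKO replicate 2 exceeded 1 WT library. Kif18a had the lowest length-scaled level of the 56 members, a mean of 0.517 RPKM, and read 4.39, 5.99 and 4.34 CPM in cKO lenses, against 3.99, 5.79 and 5.99 CPM in WT lenses. Its groups overlapped (log2 fold change -0.08, SE 0.160, adjusted p = 0.735). Kif15, Kif20b and Kif23 were not called, at -0.31, -0.09 and -0.09. Kif15 was called in 9 of 19 alternatives, and Kif20b and Kif18a in 2 each. The within-library log2 ratio of Kif20a to Kif20b, a pair chosen after its values were seen, was -0.24, -0.25 and -0.15 in cKO, against 0.20, 0.46 and 0.42 in WT. Transcript GC content was 48.4% for Kif20a and 39.4% for Kif20b. Over 10% of the exon bases of 7 members overlap a gene on the opposite strand, most of all Kif20a with 29.3% in Cdc23, and an unstranded kit cannot separate reads there.

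Among 6 genes of spindle assembly and cytokinesis, 4 fell. Tpx2, the activator of AURKA on spindle microtubules, read 29.4, 39.3 and 30.4 CPM in cKO lenses, against 49.8, 47.1 and 45.3 CPM in WT lenses. All cKO libraries were lower (log2 fold change -0.52, SE 0.104, adjusted p = 0.00196). Anln and Ect2, which act on the contractile ring, fell by 0.52 and 0.44 on the log2 scale, and Hmmr, a spindle assembly factor, by 0.32. Nusap1, which stabilises spindle microtubules, read 20.7, 27.1 and 17.5 CPM in cKO lenses, against 22.2, 20.7 and 19.7 CPM in WT lenses. Its cKO libraries lay on both sides of the WT libraries and it was not called (log2 fold change 0.04, SE 0.131, adjusted p = 0.846). The midzone bundler Prc1 was not called (log2 fold change -0.20, SE 0.124, adjusted p = 0.227).

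The condensin and chromosome structure genes held the member with the lowest log2 fold change of the 56, and also the member with the highest. Ncapd2 (ENSMUSG00000038252, GRCm38 chromosome 6, 125168007 to 125191701, minus strand), a regulatory subunit of condensin I, read 38.4, 49.5 and 36.7 CPM in cKO lenses, against 86.5, 81.0 and 92.9 CPM in WT lenses. It stood at 47.9% of the WT mean with no overlap (log2 fold change -1.06, SE 0.105, adjusted p = 9.52e-06), the only member with a log2 fold change below -1. The other condensin I subunits Ncapg and Ncaph fell by 0.35 and 0.39 on the log2 scale, and Ncaph did so with overlapping groups. The core subunits Smc2 and Smc4, which condensin I and condensin II share, were not called. Smc2 read 38.0, 48.8 and 41.4 CPM in cKO lenses, against 36.1, 39.5 and 37.4 CPM in WT lenses. Its cKO replicates 2 and 3 exceeded every WT library (log2 fold change 0.17, SE 0.0950, adjusted p = 0.177). Smc4 read 58.3, 75.2 and 59.2 CPM in cKO lenses, against 62.1, 60.1 and 65.2 CPM in WT lenses. Its WT libraries lay inside the cKO range (log2 fold change 0.03, SE 0.0969, adjusted p = 0.829). Within each library the log2 ratio of Ncapd2 to Smc2 was 0.01, 0.02 and -0.17 in cKO, against 1.26, 1.03 and 1.31 in WT, chosen after the values were seen. Top2a, the topoisomerase that untangles sister chromatids, had the highest length-scaled level of the members with a mean of 16.3 RPKM, and read 100.5, 149 and 112 CPM in cKO lenses, against 174, 167 and 179 CPM in WT lenses. The groups were apart (log2 fold change -0.54, SE 0.119, adjusted p = 0.00455). Mki67, the gene of the proliferation marker Ki-67, was next in level at 15.8 RPKM, and fell by 0.47 on the log2 scale (adjusted p = 0.00215).

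Both transcription factors fell. Foxm1, which activates G2 and mitosis genes, read 16.02, 22.0 and 15.2 CPM in cKO lenses, against 27.3, 22.8 and 27.7 CPM in WT lenses. The highest cKO library was just below the lowest WT library (log2 fold change -0.54, SE 0.129, adjusted p = 0.00606). Mybl2, which joins the MuvB complex at CHR promoters, read 4.44, 6.08 and 4.31 CPM in cKO lenses, against 7.37, 6.93 and 7.18 CPM in WT lenses. It was lower in all cKO libraries (log2 fold change -0.47, SE 0.134, adjusted p = 0.0148), although other genes hold 18.8% of its words. Its call was lost without cKO replicate 1 or 3.

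The cKO libraries were not alike in these genes. Summed over the 56 members, CPM was 1154, 1471 and 1113 in cKO replicates 1, 2 and 3, and 1708, 1608 and 1678 in WT replicates 1, 2 and 3. The median member stood at 69.2%, 86.8% and 68.0% of the WT mean in those cKO libraries, against 104%, 97.2% and 99.96% in the WT libraries, while the median of all tested genes stood at 96.9%, 107% and 101% in the cKO libraries. Replicate 2 was the highest cKO library for 51 of the 56 members (91.1%), but also for 59.3% of all tested genes. Replicate 3 was the lowest for 41 members (73.2%) and for 27.9% of all tested genes. In cKO replicates 1, 2 and 3, 46, 34 and 53 members lay below every WT library (82.1%, 60.7% and 94.6%), beside 40.5%, 25.4% and 32.7% of all tested genes. The differences between these shares were not tested. Without cKO replicate 2 the count of members called lower was 38, beside 16.4% of all genes, and without replicate 1 it was 28, beside 12.1%.

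Leaving out cKO replicate 3 ended the call of 13 members, which were Plk4, Ccna2, Ube2c, Cenpf, Ndc80, Spc24, Cdca8, Kif11, Hmmr, Ect2, Ncapg, Ncaph and Mybl2. Some of them also lost it without cKO replicate 1 (Plk4, Cenpf, Cdca8, Kif11, Ncapg, Ncaph and Mybl2), cKO replicate 2 (Ndc80), WT replicate 1 (Plk4, Ube2c, Ndc80, Cdca8, Ncapg and Ncaph), WT replicate 2 (Cenpf, Ndc80, Hmmr, Ncapg and Ncaph) or WT replicate 3 (Kif11 and Hmmr). The other 22 called members, among them Ncapd2, Aurkb, Kif2c, Bub1b, Plk1, Cdk1, Top2a and Mki67, kept their call whichever library was left out. Conversely Cenpe, Nuf2, Kif15 and Prc1 were called lower without cKO replicate 2, and Ccnb2 and Pttg1 without WT replicate 3.

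**Figure D4:**
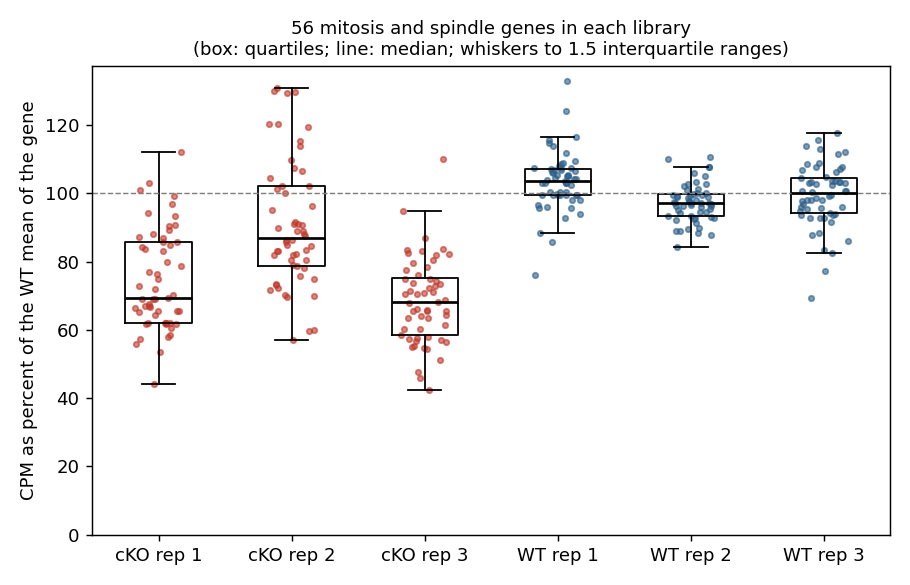
Level of each of the 56 members in each library, as a percent of its own WT mean, with cKO libraries on the left. The median member stands at 69.2%, 86.8% and 68.0% in cKO replicates 1, 2 and 3 and at 97.2% to 104% in WT.

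Members of lower GC content tended to have log2 fold changes nearer 0 in the deposited values. Across the 56 members the log2 fold change went with transcript GC content at Pearson r = -0.59 and Spearman rho = -0.63, and across 11874 tested genes at -0.27 and -0.38, given as descriptions since all genes share the same 6 libraries. Median GC was 48.1% in the 35 members that fell and 42.7% in the 21 that were not called. With a correction for GC content and gene length over all genes, 46 of 56 members were called lower and 0 higher, beside 19.4% of genes called lower and 16.1% higher. All 35 calls were kept, no member was above 0, and r among members was -0.12. Low-GC members then fell too, Mad2l1 at -0.47 (adjusted p = 0.000501) and Bub1 at -0.36 (adjusted p = 0.00499), and Smc4 turned to -0.21 (adjusted p = 0.0425). Kif20b, with 39.4% GC, was called at -0.35 (adjusted p = 0.0281), beside -0.66 for Kif20a with 48.4% GC. Kif18a was called at -0.36 (adjusted p = 0.0487). Ncapd2, with 54.0% GC, stood at -0.97, and Smc2, with 39.7% GC, at -0.080. Aurka, with 51.4% GC, remained at -0.04 (adjusted p = 0.871).

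Outside the 56 members, 102 of 103 other mitosis genes were tested, with Gsg2 listed at 0 in every library, and 38 fell (37.3%) while 10 rose (9.80%), with a median of -0.19. Over all tested genes 15.9% were called lower and 20.9% higher. Hjurp, the chaperone that deposits CENP-A at centromeres, read 25.6, 34.3 and 25.2 CPM in cKO lenses, against 83.5, 71.4 and 76.0 CPM in WT lenses. Its groups were far apart (log2 fold change -1.42, SE 0.112, adjusted p = 1.28e-06). Also lower were Aspm, a spindle pole protein (log2 fold change -0.56, SE 0.102, adjusted p = 0.00105), and Cdca5, the gene of sororin, which protects cohesion (log2 fold change -0.73, SE 0.135, adjusted p = 0.00110). The share called higher was below that of all genes. Genes called higher included the APC/C subunit genes Cdc26 (log2 fold change 0.63, SE 0.0966, adjusted p = 0.000322), Anapc10 (0.54) and Anapc13 (0.23) and the cohesin genes Smc3 (0.26) and Stag2 (0.28). The APC/C subunit gene Cdc27 (0.23) was also called higher. Other APC/C subunit genes were called lower, namely Anapc2 (-0.28), Anapc5 (-0.30), Anapc11 (-0.33) and Cdc23 (-0.26). Apart from Cdc26, the APC/C subunit genes, Smc3 and Stag2 were chosen as examples after their values were seen. With the GC content and gene length correction 2 of the 102 were called higher, and without cKO replicate 3 the count called lower was 25, beside 11.2% of all genes.

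The DNA replication genes, which act in S phase, showed a median of -0.39, with 23 of 37 tested called lower (62.2%) and 0 higher (0 also with edgeR). Over all tested genes 15.9% were called lower and 20.9% higher. Without cKO replicate 3 the count called lower was 18, beside 11.2% of all genes. Pold1, the catalytic subunit of DNA polymerase δ, read 15.3, 18.6 and 15.3 CPM in cKO lenses, against 37.5, 35.6 and 39.5 CPM in WT lenses. All cKO libraries were below WT (log2 fold change -1.15, SE 0.0958, adjusted p = 1.77e-06). Mcm5 and Mcm3, subunits of the replicative helicase, fell by 0.74 and 0.60 on the log2 scale, and Uhrf1, which maintains DNA methylation, by 0.64. These lists describe the same 6 libraries as the 56 members and are no separate samples.

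**Figure D5:**
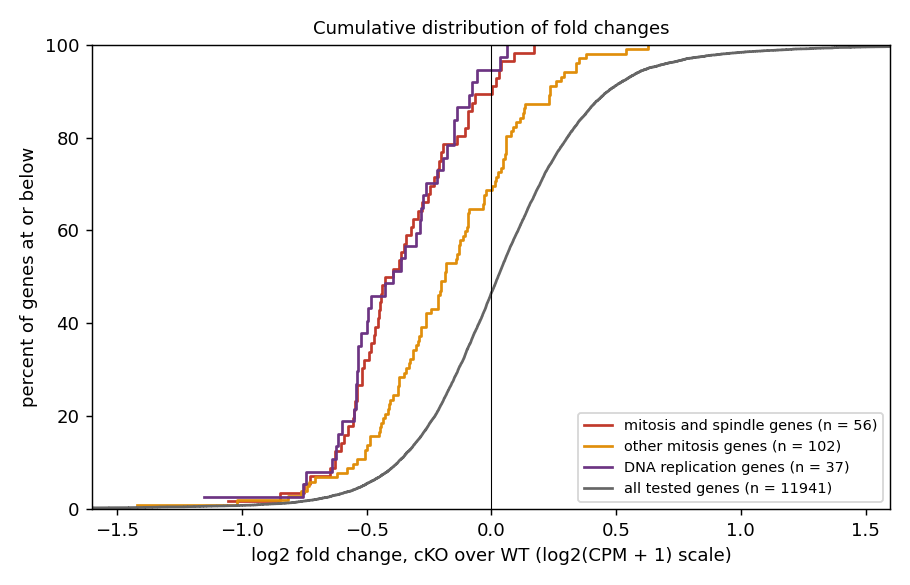
Cumulative percent of genes at or below each log2 fold change (cKO over WT, log2(CPM + 1) scale) for the 56 members, 102 other mitosis genes, 37 DNA replication genes and all 11941 tested genes. The curves of the members (median -0.41) and the replication genes (median -0.39) lie left of the other mitosis genes (median -0.19) and of all genes (median 0.03).

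Markers of other cell types differed between the groups as well. Of 15 endothelial markers 11 rose and 0 fell (0 also with edgeR), and their summed level was 253 to 302 CPM in cKO and 160 to 193 CPM in WT. Of 6 tested pericyte markers 4 rose and 1 fell (143 to 167 CPM in cKO and 102 to 130 CPM in WT), of 9 tested macrophage markers 8 rose (27.1 to 36.9 CPM in cKO and 11.2 to 14.7 CPM in WT), and of 6 tested periocular mesenchyme markers 4 rose (35.1 to 53.7 CPM in cKO and 19.1 to 21.7 CPM in WT), with Foxc2 listed at 0. Erythroid markers summed to 153 to 217 CPM in cKO and 108 to 133 CPM in WT, with 2 of 6 tested called higher and 1 lower by limma and 1 higher and 0 lower by edgeR. Over all tested genes 20.9% were called higher and 15.9% lower by limma. Of 10 lens epithelium markers 4 fell and 2 rose. Their sum was 138913, 128912 and 136289 CPM in cKO, against 144971, 145799 and 135546 CPM in WT, nearly all of it from Cryaa, an abundant crystallin also made in fibers. Without Cryaa the sum ran the other way, at 2050, 2288 and 2101 CPM in cKO, against 1952, 1976 and 2083 CPM in WT, and in both sums the groups overlapped. The part of these other cell types in the members' levels was not tested.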

How the data were processed

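Poly(A)-selected, unstranded TruSeq v2 libraries were read single-end. Each deposited table lists CPM and RPKM of 41128 features, values that the authors computed, per the file headers. Of tools and builds, the submitters' processing notes name edgeR and GRCm38; the aligner, the counter and the annotation release were not in the sources used here. Dividing each deposited CPM by its library's smallest step gave whole numbers of reads, to within 0.02 reads, for 100% of values. These sum to 20036554, 20214477 and 28095318 reads for cKO replicates 1 to 3 and 11531139, 11407157 and 10023049 reads for WT replicates 1 to 3. Deposited RPKM values served to compare levels between genes and to recover gene lengths.

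An edgeR quasi-likelihood test had been planned if the files held counts. Since the deposited unit was CPM, the planned test for CPM was used: limma-trend (limma 3.58.1, R 4.3.3) on log2(CPM + 1) with robust empirical Bayes, group as the only term, and genes of at least 1 CPM in at least 3 libraries. Adjusted p-values are Benjamini-Hochberg values over all 11941 genes tested. The test was checked on simulated data, whose changes were larger than those of many called members. On recovered reads edgeR 4.0.16 called 2388 genes lower and 2388 higher, against 1904 and 2499 with limma. DESeq2 1.42.0, limma-voom, TMM and RLE scaling, other filters, a pseudocount of 0.1, thinned reads, GC content and gene length correction, a replicate block and leaving out each library or genes sharing at least 10% of their 32-base words were alternatives.

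The members and the gene lists were chosen with earlier results of these data known, so no list was tested as a set. In each of 9 role groups, values in every library are given for the member with the smallest adjusted p, the one with the largest and the one with the highest mean RPKM, and Cdk1, Mad2l1 and Smc2 were added after their values were seen. Of each other list, up to 4 genes with the smallest adjusted p could be named. Lin54, and the genes marked as chosen or named after their values were seen, lie outside this rule. Gene coordinates come from GENCODE M21 (GRCm38) and promoters from RefSeq (GRCm38.p6), for which 9 members had no entry. Protein sequences were not used here.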

Additional observations from a re-analysis of the deposited data

How the results depend on the processing

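Over 19 alternatives the count of members called lower ran between 22 and 47, the count called higher was 0 in each, and their median log2 fold change ran between -0.51 and -0.33. It was 22 without cKO replicate 3, and leaving out 1 library at a time gave 22 to 38. Of the 35 called members, 22 kept their call in every alternative that tested them, 13 lost it in at least one, and none changed sign. With the replicate number as a block the count was 37 (all genes 2249 lower, 2916 higher). Deviations from the group means correlated at 0.33, -0.034 and 0.15 between same-numbered cKO and WT libraries, and at -0.31 to 0.21 between the others. With 3 libraries per group these values cannot show whether same-numbered libraries belong together.

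Signs changed for 9 members, none of them called in the main test. Of these, Smc4, Kif18a and Kif20b were called lower with the GC content and gene length correction, with or without the replicate block. With the GC content and gene length correction, with or without the replicate block, the log2 fold change was -0.085 for Cenph, -0.33 for Cenpk, -0.16 for Nusap1, -0.080 for Smc2, -0.21 for Smc4 and -0.18 for Spc25. With DESeq2, edgeR, RLE, TMM and limma-voom, in that order, Cenpk was at -0.0095, -0.014, -0.0063, -0.0053 and -0.042, and Spc25 at -0.025, -0.027, -0.023, -0.022 and -0.043. Nusap1 was at -0.0074 with limma-voom, and Kif18a at 0.14 with reads thinned to the smallest library. Leaving out 1 library at a time gave Aurka -0.28 to 0.088, Cenph -0.11 to 0.29, Cenpk -0.084 to 0.13, Spc25 -0.11 to 0.098, Kif18a -0.23 to 0.010, Kif20b -0.24 to 0.023, Nusap1 -0.13 to 0.18 and Smc4 -0.085 to 0.095.

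Of other mitosis genes, leaving out 1 library called 25 to 43 lower and 4 to 9 higher, the GC content and gene length correction 2 higher (2 also with the replicate block) and no filter 6 higher. DNA replication genes called lower numbered 15 of the 27 tested without genes that share sequence, against 23 of 37 in the main test. Over all genes that setting called 1506 of 9565 lower. G1 regulators called lower numbered 8 of 27 with the GC content and gene length correction (8 with the replicate block) and with RLE, TMM and limma-voom. They numbered 2 of the 20 tested without genes that share sequence, and 5 to 8 on leaving out 1 library. G1 regulators called higher numbered 3 of the 23 tested at a mean of at least 5 CPM (all genes 1988 of 9531) and 2 to 5 on leaving out 1 library. For DREAM and MuvB genes, 2 were called lower with the GC content and gene length correction (2 with the replicate block) and 0 without genes that share sequence. Called higher were 0 with DESeq2, 0 with the GC content and gene length correction (0 with the replicate block), 0 with thinned reads, 2 with the replicate block alone, and 0 to 1 on leaving out 1 library. The cause of these changes was not tested. WT libraries are the shallower ones, which limits genes near 1 CPM, and groups of 3 were not searched for single outlying samples.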

Other observations

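Regulators of the G1 phase, which decide whether a cell enters another cycle, were called at about the rate of all genes. Of 27 tested, 5 fell and 5 rose (18.5% each) and 17 were not called, beside 15.9% of all tested genes called lower and 20.9% higher, and their median log2 fold change was -0.13. The counts therefore say nothing particular to these genes, and the values below describe single genes. The CDK inhibitor genes called in opposite directions with the smallest adjusted p were Cdkn1c, the gene of p57, which lens fibers express strongly, and Cdkn2b, the gene of p15. Cdkn1c read 1096, 1145 and 1176 CPM in cKO lenses, against 1638, 1566 and 1651 CPM in WT lenses. All cKO libraries were lower (log2 fold change -0.51, SE 0.0685, adjusted p = 0.000120), and other genes hold 25.4% of its 32-base words. Cdkn2b read 1.70, 2.37 and 2.38 CPM in cKO lenses, against 0.520, 0.526 and 0.698 CPM in WT lenses. All cKO libraries were higher (log2 fold change 0.99, SE 0.155, adjusted p = 0.000367), at few reads. The retinoblastoma gene Rb1 (log2 fold change 0.55, SE 0.0978, adjusted p = 0.000830) and Tfdp2, an E2F partner (log2 fold change 0.81, SE 0.102, adjusted p = 6.15e-05), rose. The other calls, named after their values were seen, were Ccne1 (-0.51), Tfdp1 (-0.37), E2f3 (-0.31) and Ccnd1 (-0.46) lower and Cdkn1b (0.26) and Cdkn1a (0.45) higher.

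The DREAM and MuvB genes, whose products bind CHR promoters, had a median of -0.02, with 1 of 10 called lower (Tfdp1, log2 fold change -0.37, SE 0.0830, adjusted p = 0.00405) and 1 higher (Lin9, log2 fold change 0.41, SE 0.130, adjusted p = 0.0237). Over all tested genes 15.9% were called lower and 20.9% higher, so these counts say nothing particular to the list. Lin54, the subunit that binds CHR letters, read 12.2, 12.6 and 12.7 CPM in cKO lenses, against 9.37, 12.3 and 11.1 CPM in WT lenses. The groups overlapped and it was not called (log2 fold change 0.19, SE 0.111, adjusted p = 0.200). After Tfdp1 and Lin9, the next by adjusted p were E2f5 (log2 fold change 0.20, SE 0.0775, adjusted p = 0.0603) and Lin52 (log2 fold change 0.24, SE 0.120, adjusted p = 0.128), whose cKO libraries all lay above the WT libraries without a call.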
